A study of Mus musculus with 20 samples.

Results

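The step from 0.5 to 1 h of lipid A stimulation was examined in wild-type (WT) mouse bone marrow-derived macrophages (BMDMs). It rests on 4 of the 20 libraries of the series, 2 replicates at 0.5 h and 2 at 1 h, and on the 1970 of 24888 listed genes whose mean level exceeded 3 RPKM (reads per kilobase of gene span, scaled to the mapped reads of the library) at one time or the other. Marrow came from the leg and hip bones of C57BL/6 male mice, young adults whose age in weeks the study's sources do not give alike, with several mice pooled for an experiment. It was cultured for 6 days in medium with 8% CMG, which the labels do not spell out, and the cells then received lipid A for 0.5 or 1 h. The other WT libraries, with no stimulus (0 h) and at 2 and 6 h, serve for the level before and after the step. Libraries labelled Rel-/-, from mice that carry a disrupted Rel gene in every cell, serve to compare the same step in another genotype. The series holds 2 such time courses, each with both genotypes side by side, and the replicate number marks the time course.

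RNA was taken from chromatin, so that the reads come largely from transcripts still held at the gene. Such nascent RNA follows the rate of transcription within minutes, whereas mature mRNA lags behind it. In bulk RNA, fewer cells of a type and less RNA per cell cannot be told apart. Lipid A is the part of bacterial lipopolysaccharide that binds TLR4, the receptor with which macrophages sense Gram-negative bacteria. TLR4 activates MAP kinases, which switch on immediate-early genes through serum response factor (SRF) and CREB within minutes, and it releases NF-κB from its IκB inhibitors. A later branch runs through TRIF and IRF3 to interferon-β, whose autocrine signal through JAK kinases and STAT factors turns on the interferon-stimulated genes. Immediate-early transcription is known to be brief, and genes of later waves begin as it ends.

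Library depth was 23466000 and 36532000 reads at 0.5 h (replicates 1 and 2) and 23950000 and 32797000 reads at 1 h. Macrophage markers were abundant: 8 of 10 were among the tested genes, and the summed level of the list was 127 and 221 RPKM at 0.5 h and 70.5 and 114 RPKM at 1 h, and Cd14, the lipopolysaccharide co-receptor, was the most abundant. The 9 neutrophil and progenitor markers summed to 0.326 and 0.705 RPKM at 0.5 h and to 0.187 and 1.07 RPKM at 1 h, with S100a8 the most abundant at a mean of 0.222 RPKM over the 4 libraries. All 5 T cell markers lay at or under 3 reads in each of the 4 libraries. The B cell, fibroblast and erythroid lists each summed to under 0.2 RPKM in every library. The replicates differed in other ways. Reads from Rn45s, the precursor of ribosomal RNA, made up 11.04% of replicate 1 and 2.52% of replicate 2 at 0.5 h, and 17.9% and 3.35% at 1 h. The list of 32 interferon genes, of which 29 were tested, summed to 90.4 and 485 RPKM at 0.5 h and to 222 and 1107 RPKM at 1 h, so replicate 2 lay above replicate 1 at both times.

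Between 0.5 and 1 h, 126 genes rose and 139 fell (limma on log2(RPKM + 0.1), Benjamini-Hochberg adjusted p under 0.05), which is 6.4% and 7.06% of the 1970 tested genes. Of the tested genes 1193 (60.6%) exceeded 3 RPKM at both times, but 28 (22.2%) of those that rose and 32 (23.0%) of those that fell did. The others met the limit of 3 RPKM only at the time at which they were high, so the counts follow in part from that limit. The median step over all tested genes was -0.005 on the log2 scale, and 982 genes had a higher and 988 a lower fitted value at 1 h. Between the group means, 118 of the 126 rising and 131 of the 139 falling genes changed by more than 2-fold, as did 347 (17.6%) of the tested genes upwards and 312 (15.8%) downwards. With 2 libraries per time a gene must change by much to pass, so these counts follow largely from the call. In all of the 126 and 139 genes the libraries of the 2 times did not overlap, which held for 20.7% of the tested genes in the rising and 25.3% in the falling direction. When the limma fit took the replicate of each genotype as a block, 303 genes (15.4%) rose and 314 (15.9%) fell, among them all of the 126 and 139. The counts rest on the spread over all 20 libraries and on replicate 2. A limma fit to the 10 WT libraries alone made 0 calls at the adjusted threshold (170 higher and 210 lower at an unadjusted p under 0.05), and the same fit with the replicate block made 103 and 117. Without the replicate 2 libraries of the compared times 22 rose and 35 fell, of which 22 and 30 were among the 126 and 139. Each compared time is then 1 library, which is assumed to vary like the libraries of the other groups. For a single gene, an exact permutation test of 2 libraries against 2 cannot go below a two-sided p of 0.333.

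**Figure D1:**
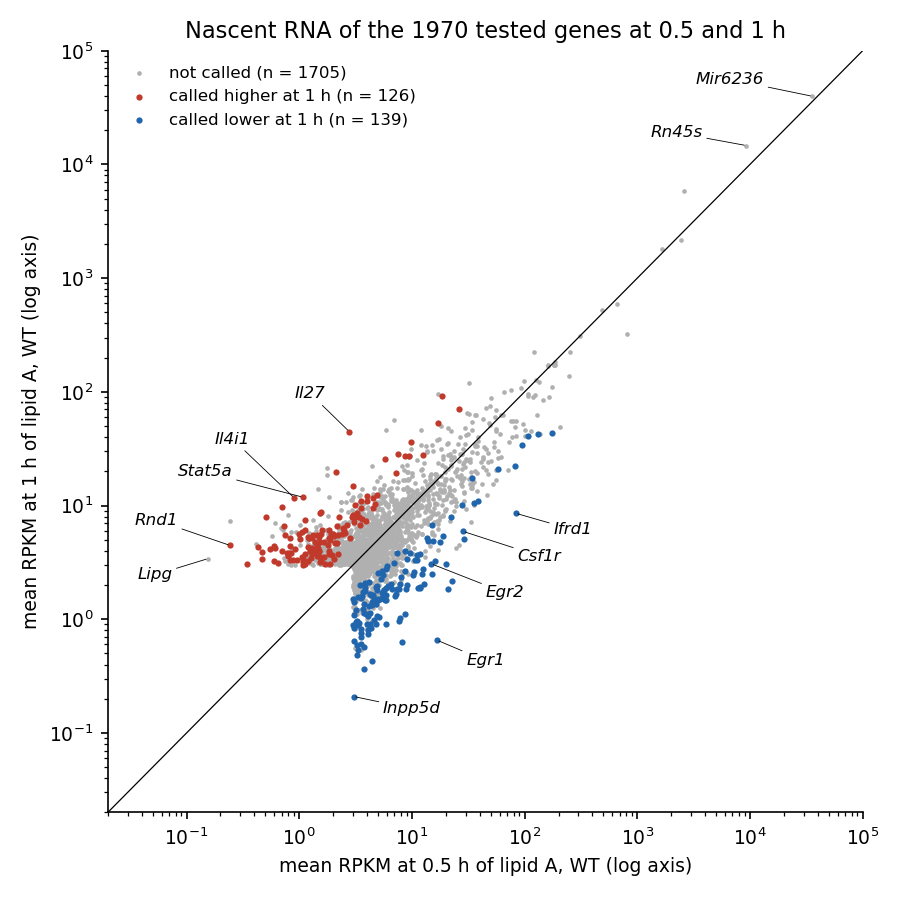
Mean RPKM of each of the 1970 tested genes in WT at 0.5 h (x axis) and at 1 h (y axis), both on log axes, with genes that rose in red, genes that fell in blue and the rest in grey. The line marks equal levels; Egr1 (16.7 against 0.654 RPKM) lies far below it and Il27 (2.78 against 44.8 RPKM) far above.

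The changed genes came from quite different starting points. Of the 139 falling genes, 19 had a mean under 1 RPKM in unstimulated cells, 44 lay between 1 and 3 RPKM and 76 lay over 3 RPKM, whereas the tested genes divided into 133, 543 and 1294. The 19 went from a median of 0.541 RPKM at 0 h to 7.16 at 0.5 h and 1.495 at 1 h, which is a brief peak at 0.5 h. The 76 stood at a median of 5.79 RPKM at 0 h and 5.47 RPKM at 0.5 h and were at 1.79 RPKM at 1 h. Genes over 3 RPKM in resting cells were thus 54.7% of those that fell and 65.7% of those tested, and genes under 1 RPKM 13.7% and 6.75%. The 314 genes that fell with the replicate block divided into 28, 84 and 202, that is 8.92% under 1 RPKM and 64.3% over 3 RPKM, shares near those of the tested genes. Of the 126 rising genes, 16 were under 1 RPKM at 0 h, 56 between 1 and 3 RPKM and 54 over 3 RPKM (32, 132 and 139 of 303 with the block). The 16 had medians of 0.340, 0.893 and 4.45 RPKM at 0, 0.5 and 1 h. The 54 had medians of 4.23, 2.06 and 5.63 RPKM, so that the level was lowest at 0.5 h and at 1 h was above that of resting cells. The levels at 0.5 and 1 h follow in part from the choice of the genes. The 0.5-h libraries enter both the earlier and the later step, so no test was made of these shapes.

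**Figure D2:**
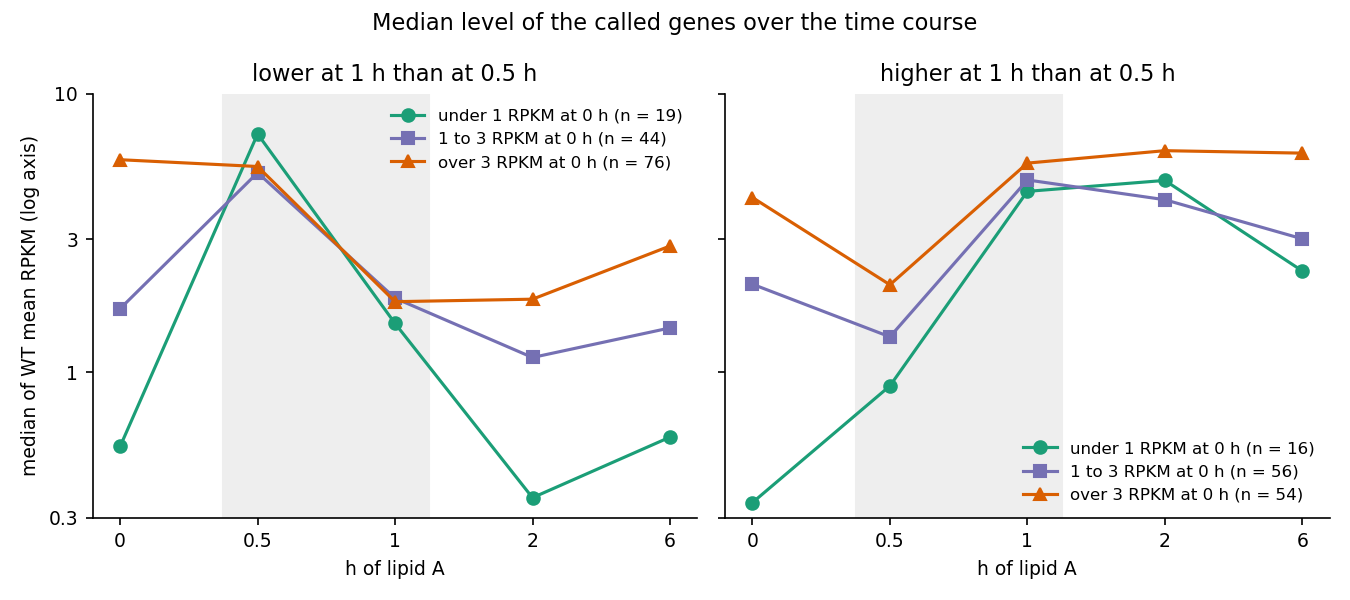
Median of the WT mean RPKM (y axis, log) over the 5 time points (x axis, h of lipid A, evenly spaced) for genes that fell (left) or rose (right) between 0.5 and 1 h, split by their level at 0 h; the shaded band marks the step. Genes under 1 RPKM at 0 h that fell peak at 7.16 RPKM at 0.5 h, and genes over 3 RPKM at 0 h that rose dip to 2.06 RPKM at 0.5 h.

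Immediate-early genes were among those that fell. Of 29 immediate-early transcription factors, 16 were tested, 8 fell (Egr1, Egr2, Btg2, Maff, Nr4a1, Fos, Ier2 and Klf6) and none rose in the limma fit, against 7.06% and 6.4% of all tested genes, with a median step of -1.58 on the log2 scale against -0.005 over all tested genes. With the replicate block 11 fell and 1 rose (Mafk), against 15.9% and 15.4%, and without replicate 2 the number that fell was 2, against 35 of all tested genes. Promoter sequences of 3 of these genes are shown because they hold, letter for letter, the site of a factor that MAP kinase signals activate. They are from RefSeq on build GRCm38.p6, and capitals mark the match. It is a CArG box, which SRF binds, in Egr2, and the cyclic AMP response element (CRE) TGACGTCA, which CREB and ATF proteins bind, in Maff and Btg2. The match was at 4 of 5 listed starts of Egr2 and at 1 of 3 of Maff. In the windows searched below, neither site was found in any other of the 8 genes, although not every tested gene had a window.
Egr2, chr10:67537759-67537828, + strand, 110 to 41 bases before a listed start: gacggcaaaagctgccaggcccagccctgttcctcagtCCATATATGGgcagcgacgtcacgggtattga
Maff, chr15:79347450-79347519, + strand, 70 to 1 bases before a listed start: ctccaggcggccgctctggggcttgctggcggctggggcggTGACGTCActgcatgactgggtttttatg
Btg2, chr1:134079286-134079355, - strand, 200 to 131 bases before its start: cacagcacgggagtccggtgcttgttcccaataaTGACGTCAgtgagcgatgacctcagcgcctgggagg

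Windows from 250 bases before to 50 after the start, searched on both strands, were matched for 1332 of the tested genes, 95 of those that fell and 89 of those that rose. A CArG box was found in 7 of the 95 falling genes (7.37%) and in 3 of the 89 rising genes (3.37%). It was in 2.18% of the tested genes and in 1.81% of all 27025 genes with a RefSeq promoter. Egr2 was the only immediate-early list member among the 7, and 4 of the 7 were over 3 RPKM at 0 h. TGACGTCA was found in 9 of the 95 (9.47%) and in 4 of the 89 (4.49%). That is against 4.05% of the tested genes and 2.03% of all genes with a RefSeq promoter. The interferon-stimulated response element (ISRE) was in 1 of the 95 (1.05%), Clec4d, a gene named for this match after its values were seen, against 6.83% of the tested genes, and in 6 of the 89 rising genes (6.74%). A consensus NF-κB site was found in 22.1% of the falling and 19.1% of the rising genes, against 16.6% of the tested genes. The patterns of CRE and AP-1 (TGANTCA) do not contain one another, and TGANTCA was in 8.42% of the falling genes and 8.03% of the tested genes. These matches describe the letters in the windows and were not tested.

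Egr1, a zinc-finger factor that SRF induces within minutes of many stimuli, had the steepest fall. It stood at 0.145 and 0.287 RPKM at 0 h, at 9.53 and 23.9 RPKM at 0.5 h and at 0.390 and 0.919 RPKM at 1 h, where 35 and 113 reads were counted. Both 1-h libraries lay far below both 0.5-h libraries. The mean fell 25.6-fold (log2 change -4.43 ± 0.58 (SE, n = 2 per time), limma, Benjamini-Hochberg adjusted p = 0.000803). Its relative Egr2 (mm9 chr10:67000617-67004936) was at 12.7 and 17.1 RPKM at 0.5 h and at 2.90 and 3.24 RPKM at 1 h, a 4.85-fold fall (limma adjusted p = 0.00451). The 1-h levels were still above the 0.138 and 0.275 RPKM of resting cells. Maff (mm9 chr15:79178832-79189506), a small Maf protein without an activation domain, was at 0.163 and 0.153 RPKM at 0 h, 11.1 and 19.0 RPKM at 0.5 h and 2.63 and 2.34 RPKM at 1 h (log2 change -2.50 ± 0.37 (SE), limma adjusted p = 0.00145). All 3 genes had 0.5-h libraries above every other WT library of the time course.

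Btg2, an antiproliferative co-regulator (mm9 chr1:135971442-135975732), was at 9.18 and 32.9 RPKM at 0.5 h and at 1.16 and 2.53 RPKM at 1 h, an 11.4-fold fall of the mean (limma adjusted p = 0.00524). The replicates differed by over 3-fold at 0.5 h. Nr4a1, an orphan nuclear receptor, went from 2.18 and 9.49 RPKM to 0.562 and 1.24 RPKM (limma adjusted p = 0.0322). Fos, the partner of Jun in AP-1, was at 3.99 and 4.75 RPKM at 0.5 h and was at 0.580 and 1.11 RPKM at 1 h (5.18-fold lower, limma adjusted p = 0.00523). In each of the 3 genes the higher of the 1-h values lay below the lower of the 0.5-h values. Ier2 fell by 1.69 and Klf6, a zinc-finger factor with the highest level of the 8 at 0.5 h (44.1 and 71.1 RPKM), fell by 1.46 on the log2 scale (limma adjusted p = 0.0176 for each). Atf3, a CREB-family repressor and the most abundant member of the list over the 4 libraries, was at 79.7 and 123 RPKM and then at 31.1 and 61.6 RPKM, a log2 change of -1.17 that missed the threshold (limma adjusted p = 0.0633, and 0.0252 with the replicate block). The same was true of Jun, at 7.61 and 9.15 RPKM and then at 1.39 and 3.75 RPKM (limma adjusted p = 0.0633, and 0.01001 with the block). Junb, another AP-1 subunit, was at 34.0 and 22.8 RPKM and then at 28.3 and 18.6 RPKM (limma adjusted p = 0.767).

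Among 17 tested genes of the NF-κB family and its inhibitors, 2 fell and 0 rose (limma), with a median of -0.32. With the replicate block 4 fell and 3 rose. Both shares that fell are near those of all tested genes (7.06%, and 15.9% with the block), so the counts say nothing particular of the list. Nfkbiz, the atypical nuclear inhibitor IκBζ needed for a later wave of genes, was at 92.7 and 122 RPKM at 0.5 h and at 42.9 and 39.0 RPKM at 1 h (log2 change -1.37, limma adjusted p = 0.0424). Nfkbib, which encodes IκBβ, was at 12.9 and 17.8 RPKM and then at 5.77 and 3.95 RPKM (log2 change -1.65, limma adjusted p = 0.00402). Both stayed above their unstimulated means of 2.01 and 1.12 RPKM at 1 h. Nfkbia, the gene of IκBα, was at 119 and 117 RPKM and then at 82.3 and 96.5 RPKM (limma adjusted p = 0.490). Tnfaip3, which encodes the deubiquitinase A20, was at 102 and 143 RPKM and then at 59.3 and 128 RPKM (adjusted p = 0.555). Of 5 tested mRNA decay factors 1 fell, and 2 with the block. Zc3h12c, a Regnase-family RNA-binding protein, fell from 22.7 and 33.0 RPKM to 9.19 and 11.1 RPKM (log2 change -1.43 ± 0.25 (SE), limma adjusted p = 0.00297). Zfp36, whose protein tristetraprolin destroys cytokine mRNAs, was at 44.0 and 112 RPKM and then at 15.1 and 64.9 RPKM (adjusted p = 0.354). None of the 6 tested MAP kinase phosphatases and Sprouty-family inhibitors passed in the limma fit, and 2 fell with the block. One was Dusp4, which inactivates ERK in the nucleus, at 26.7 and 7.17 RPKM and then at 7.14 and 1.02 RPKM. Its adjusted p was 0.202 in the limma fit and 0.000348 with the block. Each replicate was lower at 1 h, and replicate 1 lay above replicate 2 at both times.

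Further genes that fell belonged to none of these lists. Ifrd1, an interferon-related transcriptional co-regulator (mm9 chr12:40929716-40949776), had the highest level of the 15 genes with the steepest falls. It was at 4.38 and 2.69 RPKM at 0 h, 69.6 and 97.6 RPKM at 0.5 h and 10.5 and 6.59 RPKM at 1 h, a 9.78-fold fall (log2 change -3.29 ± 0.33 (SE), limma adjusted p = 0.000125). Med21, a subunit of the Mediator complex that links transcription factors with RNA polymerase II, was at 13.7 and 11.8 RPKM at 0.5 h and at 1.66 and 2.43 RPKM at 1 h (limma adjusted p = 0.00356), against 0.738 and 0.586 RPKM at 0 h. The replicates of both genes lay close together at each time. Thap6, a zinc-finger gene of the THAP family, fell from 3.02 and 5.74 RPKM to 0.541 and 0.313 RPKM. Fabp4, a fatty acid-binding protein of macrophages and adipocytes, fell from 8.83 and 6.82 RPKM to 0.694 and 1.37 RPKM, and Glipr1 from a mean of 22.5 RPKM to one of 2.18 RPKM. Tfec, a transcription factor of the MITF family, fell by 1.47 on the log2 scale, from 23.1 and 21.1 RPKM to 7.04 and 8.92 RPKM (limma adjusted p = 0.0460), the one falling gene among 18 later-acting regulators tested. Plau, the urokinase plasminogen activator, had 36.5 and 21.0 RPKM and then 8.42 and 1.81 RPKM, with an adjusted p just under the threshold (limma, 0.0497; 0.00231 with the block).

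Genes that resting macrophages already transcribed fell as well. Inpp5d, which encodes the SHIP1 phosphatase that opposes PI3-kinase signalling (mm9 chr1:89516887-89617085), was at 6.14 and 6.62 RPKM at 0 h, 3.07 and 3.02 RPKM at 0.5 h and 0.207 and 0.211 RPKM at 1 h, a 14.6-fold fall (log2 change -3.35 ± 0.32 (SE), limma adjusted p = 0.000123). Its mean was 0.170 RPKM at 2 h and 1.59 RPKM at 6 h. Csf1r, the receptor for M-CSF on which macrophage survival depends, was at 18.5 and 45.8 RPKM at 0 h, 25.5 and 31.6 RPKM at 0.5 h and 5.87 and 5.97 RPKM at 1 h (4.82-fold lower than at 0.5 h, limma adjusted p = 0.00297). Trem2, a lipid-sensing receptor of resting macrophages, had 23.7 and 25.9 RPKM at 0 h, 6.08 and 4.94 RPKM at 0.5 h and 1.61 and 1.84 RPKM at 1 h (limma adjusted p = 0.0403). The 0.5-h libraries overlapped the unstimulated ones for Csf1r and lay below them for Inpp5d and Trem2, and all 3 genes were at their lowest WT means at 1 h or later.

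Csf1r and Trem2 were the only genes of 17 tested resting macrophage genes that fell in the limma fit, and none rose, against 7.06% of all tested genes that fell. With the replicate block 5 fell and 1 rose, against 15.9% and 15.4%, and the list's median step was -0.82. Man1c1, a Golgi mannosidase, went from 2.84 and 4.62 RPKM to 0.269 and 0.459 RPKM (limma adjusted p = 0.000640). Mknk2, a kinase of the translation factor eIF4E, went from 3.78 and 3.27 RPKM to 1.05 and 0.347 RPKM (limma adjusted p = 0.0118). Mbnl1, a splicing regulator, had 9.29 and 19.8 RPKM at 0 h, 8.29 and 14.3 RPKM at 0.5 h and 0.990 and 2.81 RPKM at 1 h, and its mean was back at 13.7 RPKM at 6 h. Slc20a1, a phosphate transporter, was at 11.99 and 11.8 RPKM and then at 2.50 and 1.27 RPKM. The 0.5-h and 1-h libraries of these 4 genes did not overlap. Lpar6, a lysophosphatidic acid receptor that lies wholly within the larger gene Rb1, fell from 2.14 and 4.39 RPKM to 0.440 and 0.531 RPKM. Its reads cannot be told apart from those of Rb1 introns where counting ignores strand, which the sources used here do not state.

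**Figure D3:**
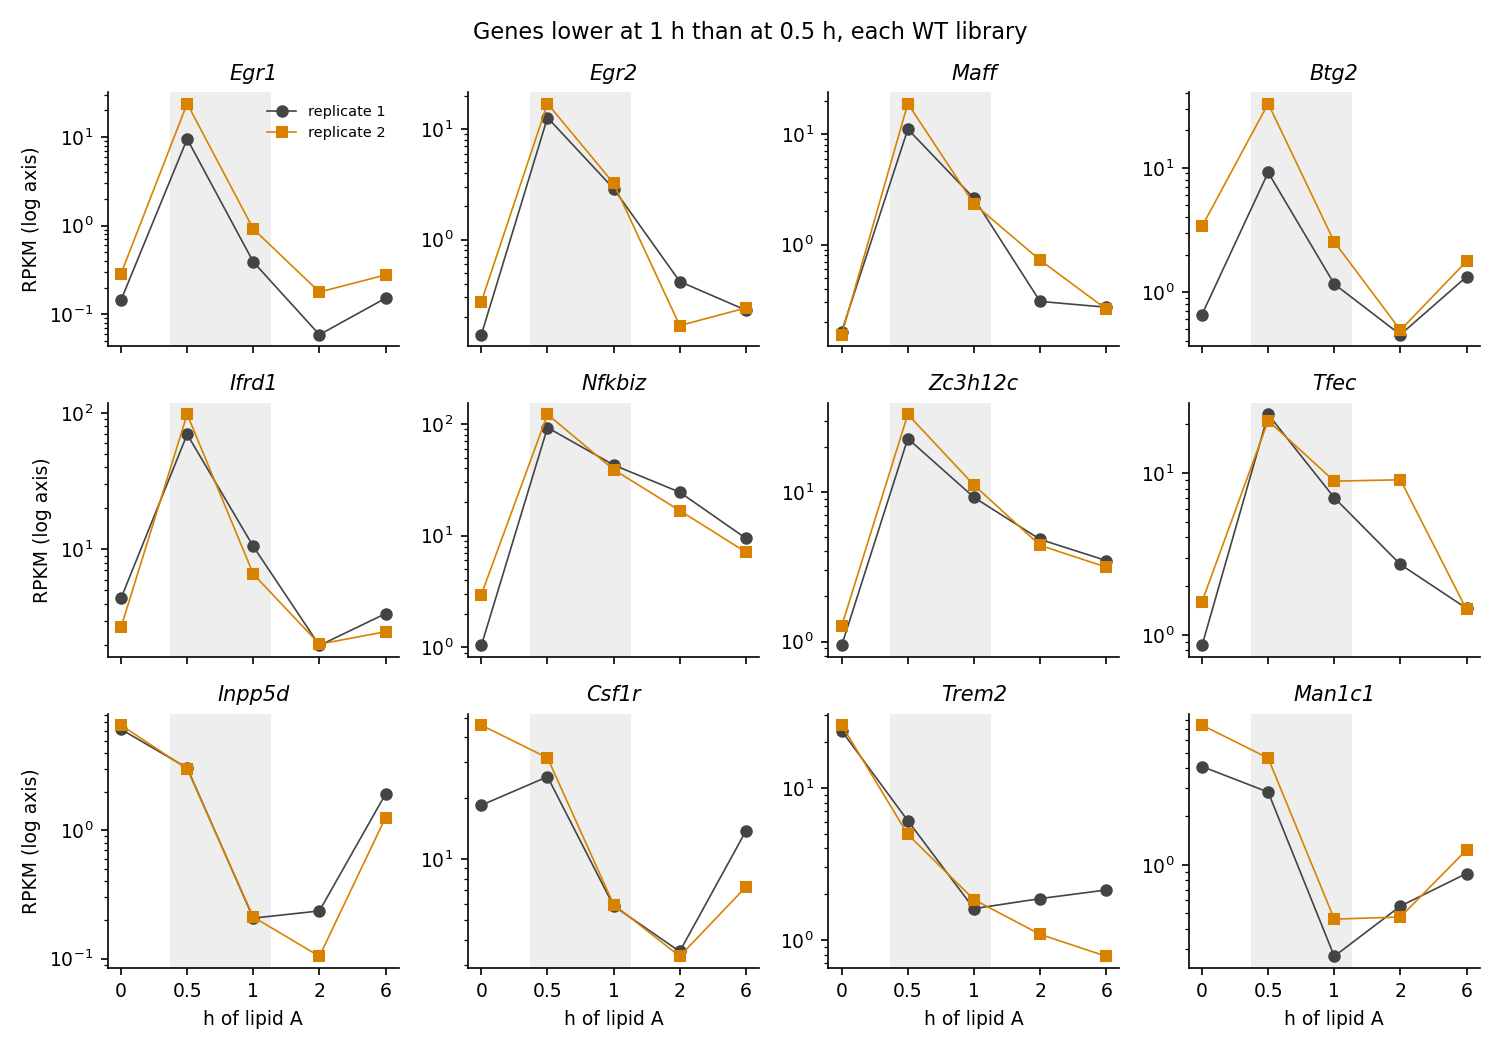
RPKM of 12 genes that fell between 0.5 and 1 h in each WT library (y axis, log), by h of lipid A (x axis, evenly spaced); circles are replicate 1, squares replicate 2, and the band marks the step. Egr1, Egr2, Maff, Btg2, Ifrd1, Nfkbiz, Zc3h12c and Tfec peak at 0.5 h, whereas Inpp5d, Csf1r, Trem2 and Man1c1 were at 6.38, 32.2, 24.8 and 5.75 RPKM on average before stimulation.

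By level alone, 37 genes were shut off, with a mean over 3 RPKM at 0.5 h and under 1 RPKM at 1 h, and 30 of them were among those that fell. Their unstimulated mean was over 3 RPKM for 20, between 1 and 3 RPKM for 10 and under 1 RPKM for 7. Spans under 500 bases made up 11 of the 37 (29.7%). Limits held in each library, not on the mean, left 6: Egr1, Inpp5d, Snx24, Thap6 and the small loci Mir6403 and Mir8091. Few reads underlie these 2 loci. Mir6403 had 18 and 49 reads at 0.5 h and 1 and 4 at 1 h, and Mir8091 had 11 and 24 and then 2 and 4. Without replicate 1 the rule took 57 genes, 22 of the 37 among them, and without replicate 2 it took 43, with 16 of the 37. Snx24, a sorting nexin, was at 4.90 and 3.58 RPKM and then at 0.783 and 0.957 RPKM. H2-Aa, a chain of MHC class II, met the rule on the means but in neither replicate (limma adjusted p = 0.625). It was at 0.277 and 8.54 RPKM at 0.5 h and at 0.189 and 1.73 RPKM at 1 h. Ptp4a1, a phosphatase that fell from 2.73 and 6.44 RPKM to 1.02 and 0.961 RPKM, overlaps another listed gene over most of its span, and its reads are uncertain for that reason. Slc43a2, an amino acid transporter, was at 9.25 and 19.3 RPKM at 0 h, 3.14 and 6.47 RPKM at 0.5 h and 0.645 and 1.16 RPKM at 1 h (limma adjusted p = 0.0153 for the step), lower at each time than at the time before.

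Genes whose transcription started or rose over the step included Il27, Stat5a, Jak2, Cish and Rnd1. Il27 (mm9 chr7:133732809-133738424), the p28 chain of interleukin 27, had the largest fitted log2 change among the genes that rose, although by the ratio of the means Rnd1 rose more. It was at 0.227 and 1.05 RPKM at 0 h, 1.58 and 3.97 RPKM at 0.5 h and 22.5 and 67.1 RPKM at 1 h, or 3025 and 12350 reads, a 16.1-fold rise (log2 change 3.90 ± 0.59 (SE, n = 2 per time), limma, Benjamini-Hochberg adjusted p = 0.00149). Both 1-h libraries were above every earlier WT library, and the mean was 91.4 RPKM at 2 h and 43.0 RPKM at 6 h. Il27 was the only one of 12 tested cytokines that passed in the limma fit, against 6.4% of all tested genes that rose. With the replicate block Il15, at 2.05 and 8.37 RPKM and then at 6.10 and 29.4 RPKM, was the other, and 2 of 12 is near the 15.4% of all tested genes, so the counts say nothing particular of the cytokines.

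Stat5a (mm9 chr11:100720665-100746483), a transcription factor that cytokine receptors activate, had the lowest p of all tested genes. Its level was 0.998 and 1.04 RPKM at 0 h, 0.952 and 1.20 RPKM at 0.5 h and 10.1 and 13.7 RPKM at 1 h, an 11.04-fold rise (log2 change 3.34 ± 0.30 (SE), limma adjusted p = 9.13e-05). Jak2 (mm9 chr19:29326293-29387570), the receptor-bound kinase that phosphorylates STAT5, was at 1.15 and 3.07 RPKM and then at 7.98 and 31.5 RPKM (9.36-fold, limma adjusted p = 0.00611). Cish, a SOCS-family inhibitor and a known target of STAT5, was at 0.577 and 0.621 RPKM at 0.5 h and at 2.11 and 6.63 RPKM at 1 h (7.29-fold, limma adjusted p = 0.00663). Its mean was 8.63 RPKM at 2 h and 0.241 RPKM at 6 h. Stat5a was at about the same level at 0 and 0.5 h in both replicates, and the 3 genes had no overlap between the 0.5-h and 1-h libraries.

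Rnd1 (mm9 chr15:98499636-98507892) was nearly silent before, at 0.0723 and 0.0402 RPKM at 0 h and 0.258 and 0.229 RPKM at 0.5 h. It was at 2.33 and 6.59 RPKM at 1 h (18.3-fold, log2 change 3.55 ± 0.62 (SE), limma adjusted p = 0.00297). The tyrosine kinase gene Src was at 0.397 and 0.792 RPKM and then at 2.90 and 3.64 RPKM (limma adjusted p = 0.00449). Batf, an AP-1 family factor that works with IRF proteins, was at 0.181 and 1.03 RPKM and then at 1.89 and 6.65 RPKM (limma adjusted p = 0.0176). In all 3 the lower 1-h library exceeded the higher 0.5-h library. Il4i1, a secreted amino acid oxidase of myeloid cells, was at 0.763 and 1.04 RPKM and then at 13.3 and 10.1 RPKM (13.0-fold). However, 99.9% of its span is shared with other listed genes, and its reads cannot be assigned with certainty. Fam241a was at 1.06 and 2.31 RPKM at 0 h, 0.733 and 0.670 RPKM at 0.5 h and 2.21 and 17.2 RPKM at 1 h (limma adjusted p = 0.0159). The size of its rise rests on replicate 2. Kcnn4, a calcium-activated potassium channel, was at 2.50 and 0.615 RPKM and then at 9.56 and 8.101 RPKM (limma adjusted p = 0.0325). It had 3947 and 548 reads at 0 h and 877 and 336 reads at 0.5 h. Relative to library depth, too, both replicates of Kcnn4 were lower at 0.5 h than at 0 h.

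Some genes that rose, Fam241a among them, had been lower at 0.5 h than in resting cells and came back. Max, the obligate partner of MYC, was at 2.67 and 5.55 RPKM at 0 h, 0.746 and 0.744 RPKM at 0.5 h and 3.56 and 7.47 RPKM at 1 h (7.402-fold up over the step, limma adjusted p = 0.00149). Zcchc2, a zinc-finger gene, was at 2.02 and 2.88, then at 0.641 and 1.01 and then at 4.66 and 5.75 RPKM (6.32-fold, limma adjusted p = 0.000716). Anp32a, a histone-binding nuclear phosphoprotein, was at 1.81 and 2.33, then at 0.488 and 0.450 and then at 4.56 and 2.27 RPKM (7.28-fold, limma adjusted p = 0.00155). For these 3 genes both 0.5-h libraries were below both resting libraries and both 1-h libraries. Tspo, a cholesterol-binding protein of the outer mitochondrial membrane, had 0.957 and 1.97 RPKM at 0 h, 0.285 and 0.736 RPKM at 0.5 h and 3.01 and 12.8 RPKM at 1 h (15.5-fold, limma adjusted p = 0.00265). Pigv, a mannosyltransferase of GPI anchor synthesis, rose 6.70-fold and Myadm, a myeloid membrane protein, 5.604-fold (limma adjusted p = 0.000803 and 0.00163).

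**Figure D4:**
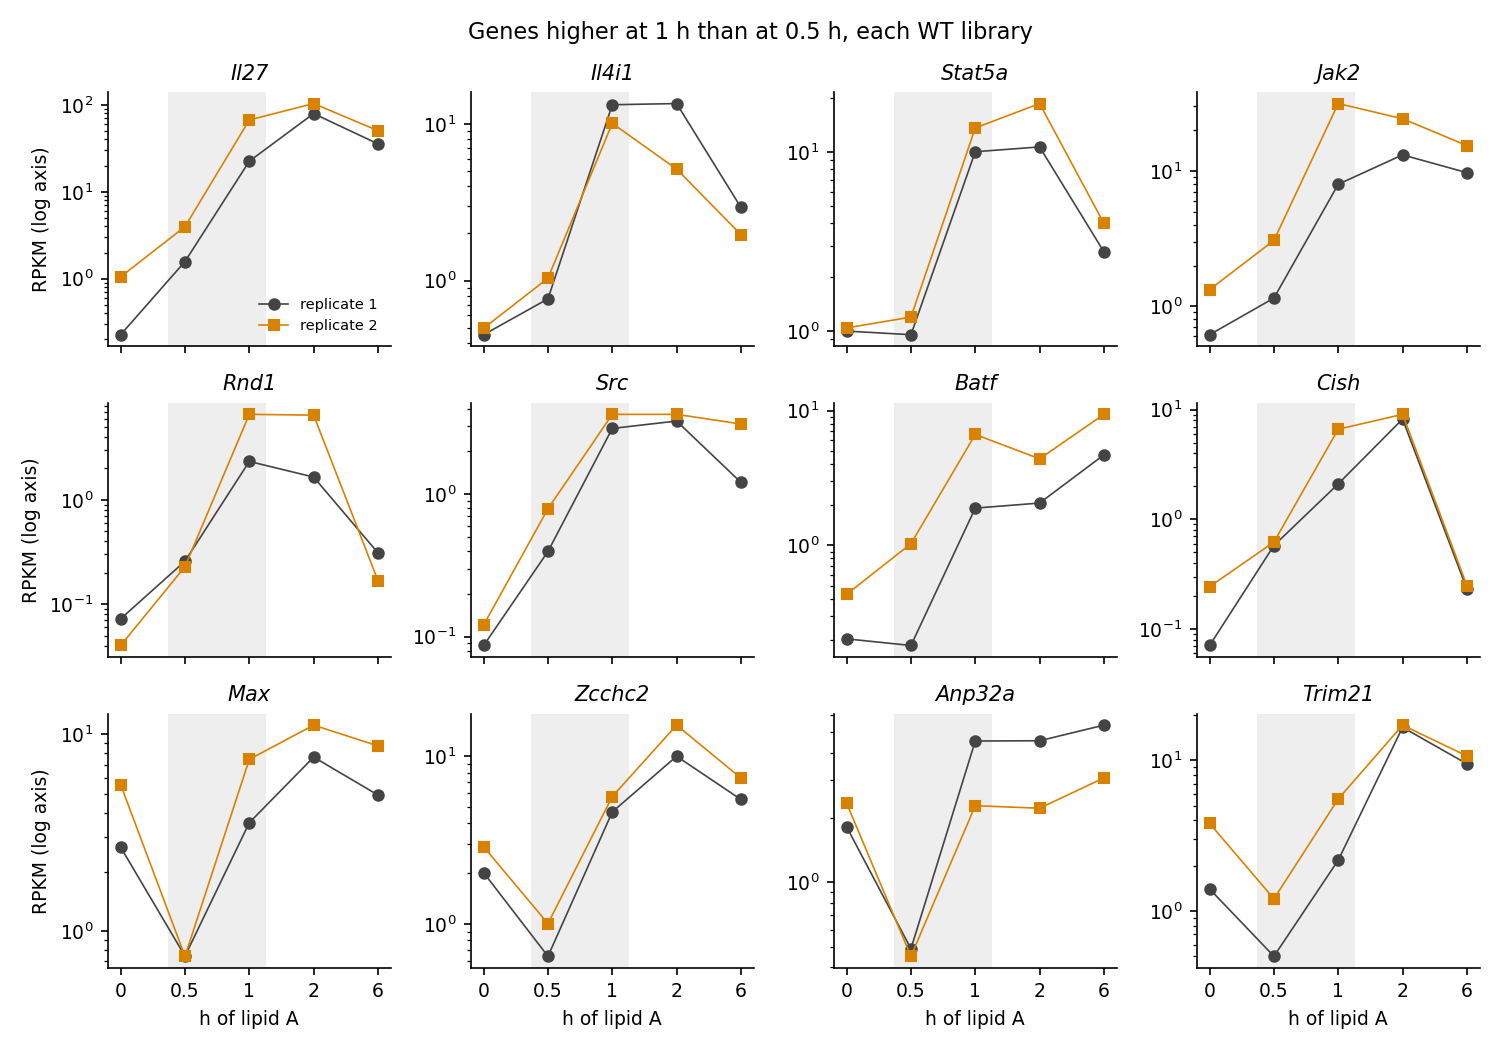
RPKM of 12 genes that rose between 0.5 and 1 h in each WT library (y axis, log), by h of lipid A (x axis, evenly spaced); circles are replicate 1, squares replicate 2, and the band marks the step. Stat5a is flat until 0.5 h (1.02 and 1.07 RPKM on average) and then at 11.9 RPKM, whereas Max, Zcchc2, Anp32a and Trim21 are at their lowest mean at 0.5 h.

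By level alone, 12 genes were newly on at 1 h, with means under 1 RPKM at 0 and 0.5 h and over 3 RPKM at 1 h: Il4i1, Nfil3, Rnd1, Cish, Batf, Snn, Lipg, Stim2, Src and the miRNA loci Mir1948, Mir455 and Mir147. The test was passed by 10 of them. Nfil3, a basic leucine zipper repressor, and Lipg, endothelial lipase, owed the rule to replicate 2, with 0.743 and 15.9 RPKM (Nfil3) and 0.135 and 6.69 RPKM (Lipg) at 1 h. Their adjusted p was 0.193 and 0.214 in the limma fit and 0.0339 and 0.0223 with the block. Stim2, a calcium sensor of the endoplasmic reticulum, was at 0.973 and 0.951 RPKM and then at 3.17 and 3.53 RPKM (limma adjusted p = 0.0231). Limits held in each library left Stim2 and Mir455. Membership depended on the replicate: 33 genes met the rule without replicate 1, 9 of the 12 among them, and 17 without replicate 2, of which 3 were among the 12.

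The miRNA loci are short, and their values rest on few reads. Mir455 was listed at 1 read, the lowest value of the table, in every WT library at 0 and 0.5 h and had 9 and 11 reads at 1 h, and Mir147 had 2 reads in each library at 0.5 h and 6 and 9 at 1 h. Mature products from RefSeq are shown, the 5p product for Mir147 and the 5p and 3p products for Mir455. The seed (bases 2 to 8, which pair with targets) is in capitals.
mmu-miR-147-5p: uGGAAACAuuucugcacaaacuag
mmu-miR-455-5p: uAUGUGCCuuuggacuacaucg
mmu-miR-455-3p: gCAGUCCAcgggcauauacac
No seed is shared among the 3. The genes in which the loci lie, named here after their values were seen, also had more reads at 1 h. AA467197, around Mir147, was at 0.588 and 0.232 RPKM and then at 2.34 and 2.39 RPKM. Col27a1, around Mir455, was at 0.323 and 0.127 RPKM and then at 1.99 and 0.638 RPKM. Reads of the host RNA and of the miRNA precursor cannot be told apart at these loci. Mir147 continued to a mean of 9.26 RPKM at 2 h, and Mir455 was at 0.501 RPKM at 6 h.

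Of 20 listed cytokines 12 were tested, and by their fitted value 7 were higher and 5 lower at 1 h, with a median of 0.23. Tnf, the founding member of the tumour necrosis factor family, was at 236 and 259 RPKM and then at 177 and 101 RPKM (limma adjusted p = 0.428). Il1b, interleukin 1β, was at 38.1 and 158 RPKM and then at 16.7 and 88.5 RPKM (limma adjusted p = 0.523). Of 12 tested chemokines none passed in the limma fit, where 6.4% of all tested genes rose and 7.06% fell, and 1 rose and 1 fell with the block (15.4% and 15.9%), with 5 higher and 7 lower by their fitted value and a median of -0.11. Cxcl2, a neutrophil attractant, was at 187 and 227 RPKM and then at 72.1 and 26.2 RPKM (log2 change -2.24, limma adjusted p = 0.137, and 0.0425 with the block). Ccl5, which attracts T cells, was at 3.97 and 30.2 RPKM and then at 65.7 and 125 RPKM (log2 change 3.03, limma adjusted p = 0.0516, and 0.0136 with the block). Neither gene's libraries overlapped between the times, with Cxcl2 lower and Ccl5 higher at 1 h. Il12b, the p40 chain of interleukins 12 and 23, was at 2.18 and 6.65 RPKM and then at 27.5 and 16.9 RPKM (log2 change 2.46, limma adjusted p = 0.117, and 0.0627 with the block).

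Interferon-stimulated genes were higher at 1 h by their fitted value in 28 of 29 tested, with a median of 1.61 on the log2 scale, against 982 of 1970 and a median of -0.005 over all tested genes. Only Trim21, a ubiquitin ligase and antibody receptor, rose in the limma fit, from 0.501 and 1.21 RPKM to 2.18 and 5.54 RPKM (adjusted p = 0.0194). That is 1 of 29, against 6.4% of all tested genes. Some of the 29, Trim21 among them, exceeded a mean of 3 RPKM only at 1 h, as did 422 (21.4%) of all tested genes. For these members the higher value at 1 h follows in part from that limit. With the replicate block 5 rose, against 15.4%, and after quantile normalization or without replicate 2 none did. Rsad2, which encodes viperin, was at 4.14 and 59.7 RPKM and then at 42.6 and 196 RPKM (limma adjusted p = 0.202, and 0.0400 with the block). Ifih1, the RNA sensor MDA5, was at 3.41 and 38.2 RPKM and then at 27.5 and 69.0 RPKM (limma adjusted p = 0.213, and 0.0221 with the block). In both, each replicate was higher at 1 h than at 0.5 h, and replicate 2 at 0.5 h already exceeded replicate 1 at 1 h, as the summed level of the list did. Ifnb1, interferon-β itself, was at 1.77 and 25.99 RPKM and then at 11.4 and 12.4 RPKM, higher at 1 h in replicate 1 and lower in replicate 2.

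Among the remaining lists, 13 tested genes of Toll-like receptor signalling and 11 costimulatory and contact molecules had no call in the limma fit (medians 0.07 and 0.19). With the block 0 and 1 passed. Of 11 tested survival and growth arrest genes none passed in the limma fit and 5 fell with the block, against 15.9% of all tested genes, with a median of -1.004. Mcl1, an anti-apoptotic BCL2 relative, was at 77.3 and 151 RPKM and then at 39.7 and 51.1 RPKM (limma adjusted p = 0.104, and 0.0165 with the block). Of 6 tested secreted and vascular mediators Plau alone fell. Of the 18 later-acting regulators Stat5a, Cish and Batf rose and Tfec fell, against 6.4% and 7.06% of all tested genes, and 6 rose and 2 fell with the block, against 15.4% and 15.9%. None of 5 tested housekeeping genes passed in the limma fit, and 1 fell with the block. It was Eef1a1, a translation elongation factor, at 11.5 and 10.6 RPKM and then at 7.86 and 3.23 RPKM (limma adjusted p = 0.0931, and 0.0142 with the block). Actb, a cytoskeletal actin, was at 20.1 and 19.1 RPKM and then at 17.0 and 27.1 RPKM. Of the 8 tested macrophage markers 1 fell, Csf1r, and 3 fell with the block, against 7.06% and 15.9% of all tested genes.

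**Figure D5:**
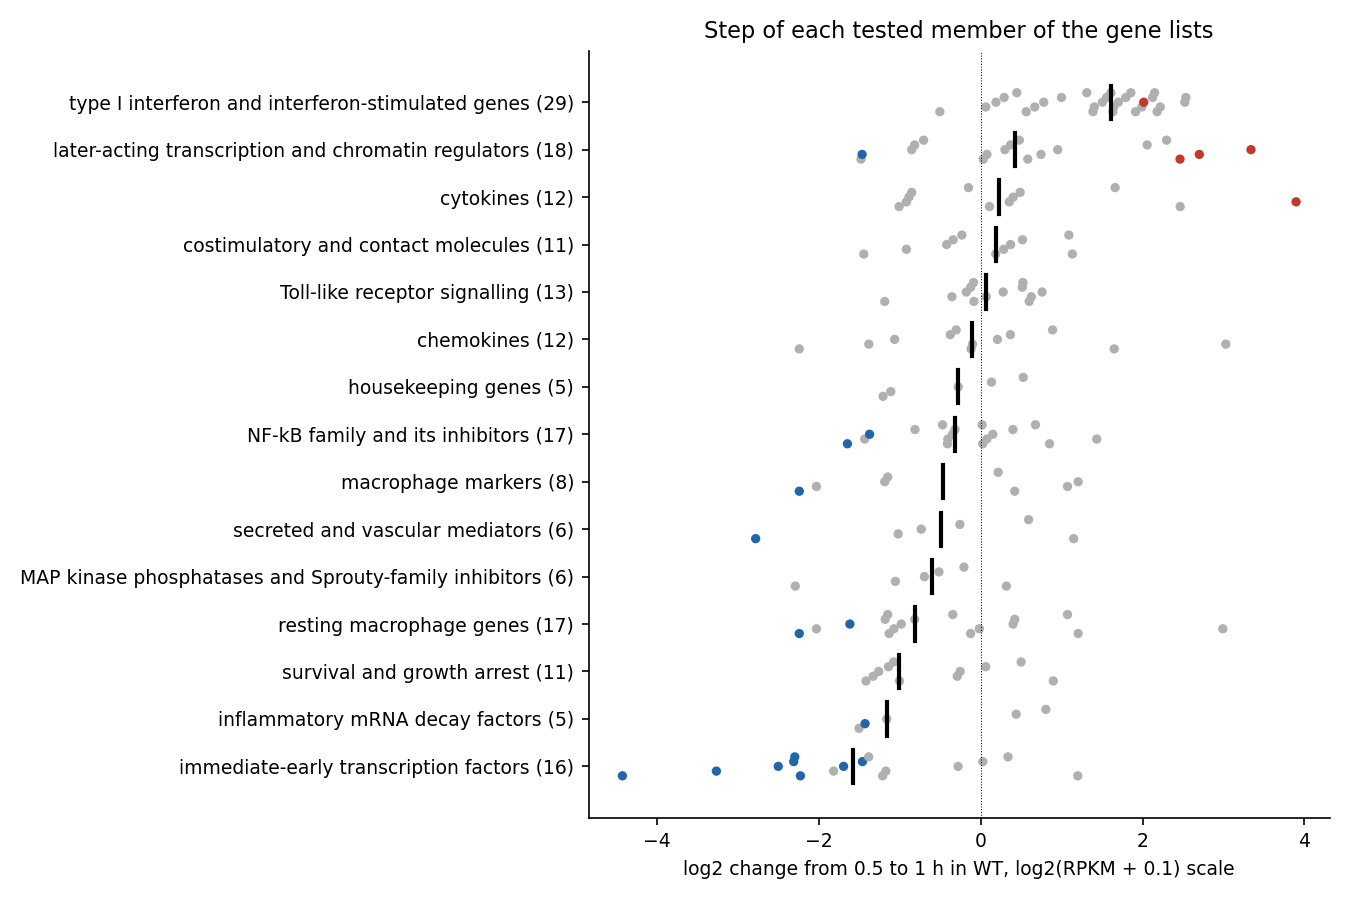
Fitted log2 change from 0.5 to 1 h in WT (x axis, log2(RPKM + 0.1) scale) of each tested member of the gene lists (rows, with the number tested), where the black bar is the list's median, blue and red points fell and rose in the limma fit and grey points did not pass. The medians run from -1.58 for the immediate-early factors to 1.61 for the interferon-stimulated genes. In both lists some members exceeded a mean of 3 RPKM only at the time at which they were high.

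The later time points show what became of the step. At 2 h, 80 of the 139 genes that fell had a mean more than 2-fold below that of unstimulated cells, which held for 448 of the 1970 tested genes, and 51 of them did at 6 h, against 380 of all tested genes. Inpp5d was 4.63 lower on the log2 scale at 2 h than at 0 h and Csf1r 3.06 lower (limma adjusted p = 1.25e-06 and 7.55e-05). Of the 126 genes that rose, 67 were more than 2-fold above the unstimulated mean at 2 h, against 541 of all tested genes, and 49 were at 6 h, against 461. The rising genes had a median of 5.22 RPKM at 1 h, 5.22 RPKM at 2 h and 4.50 RPKM at 6 h. The 2-h, 6-h and 0-h libraries took no part in choosing these genes, except through the estimate of the spread.

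The same step was measured in the libraries labelled Rel-/-. Rel, the gene the label names, gave 10.5 and 14.95 RPKM at 0.5 h and 15.6 and 16.2 RPKM at 1 h in them, and 7.48 and 20.05 RPKM and then 10.3 and 18.03 RPKM in WT. Nascent reads over the whole gene span therefore do not tell the genotypes apart, and the part of the gene that is disrupted is not given in the sources used here. In the Rel-/- libraries 162 genes (8.22%) rose and 166 (8.43%) fell in the limma fit. Of the genes that rose in WT, 125 of 126 had the same sign in Rel-/- and 97 also passed there. Of those that fell, 135 of 139 had the same sign and 101 passed. Over all 1970 tested genes 1691 had the same sign. A test of the difference between the genotypes' steps called 0 genes (0%; limma, adjusted p under 0.05), with 34 at an unadjusted p under 0.05 and again 0 called with the replicate block. Egr1 changed by -4.36, Inpp5d by -3.43, Stat5a by 3.10 and Il27 by 3.67 on the log2 scale in Rel-/-. Fitted steps were smaller in Rel-/- than in WT for Dhx40, a helicase gene (-0.11 against -1.96), Slc43a2 (-0.69 against -2.25), Med21 (-1.35 against -2.60), Rnd1 (1.602 against 3.55) and Il4i1 (1.66 against 3.56). They were larger in Rel-/- for Tfec (-2.86 against -1.47), Trim21 (3.11 against 2.01), Maff (-3.41 against -2.50), Fabp4 (-3.64 against -2.86) and Egr2 (-2.90 against -2.23). The median of the tested interferon genes was likewise 2.42 in Rel-/- and 1.61 in WT. None of the differences for these genes passed.

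The most abundant RNAs did not pass the test in the limma fit. Mir6236, a locus within ribosomal RNA sequence, was at 51819 and 19806 RPKM and then at 54521 and 25026 RPKM. Rn45s was at 15144 and 3436 RPKM and then at 24513 and 4815 RPKM (limma adjusted p = 0.868 for Mir6236 and 0.765 for Rn45s). Malat1, a nuclear long non-coding RNA, was at 1308 and 3626 RPKM and then at 1065 and 3262 RPKM. Neat1, the RNA scaffold of paraspeckles, was at 737 and 900 RPKM and then at 313 and 337 RPKM, a log2 change of -1.33 (limma adjusted p = 0.0620, and 0.0148 with the block). Rescaling the libraries without Rn45s gave 159 rising and 129 falling genes.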

How the data were processed

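Chromatin-associated RNA from 20 BMDM libraries (2 replicates each of WT and Rel-/- at 0, 0.5, 1, 2 and 6 h) was sequenced from a stranded kit. The deposited table holds RPKM per RefSeq gene span, made by the authors by alignment to mm9 with HISAT2, sorting with SAMtools and quantification in SeqMonk; whether counting used strand is not given in the sources used here. RPKM times span gave whole reads for 100% of values up to 300 reads (tolerance 0.05), at depths of 21094000 to 45439000 reads, and no value lies below 1 read; how genes without reads were listed is not given in the sources used here. No count test was run on these recovered reads, and the deposited RPKM were tested instead.

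Genes with a WT mean over 3 RPKM at 0.5 or 1 h were tested on log2(RPKM + 0.1) with limma 3.58.1 (R 4.3.3; 10 group means, eBayes with a trend, 10 residual degrees of freedom, Benjamini-Hochberg over the 1970 genes, threshold 0.05), and the code was tested on simulated data. Scripts used Python 3.11.15, pandas 2.3.3, numpy 2.4.6, scipy 1.17.1 and matplotlib 3.10.9. Rose, fell and passed refer to this limma fit unless a block is named. Replicate numbers mark the same time course and paired the samples: deviations from the group means correlated at 0.447 to 0.770 over the 10 pairs of WT time points (0.672 between 0.5 and 1 h) and at 0.105 to 0.618 in Rel-/-. The fit with the replicate number as a block (1 term per genotype, 8 residual degrees of freedom) is given beside results whose call or count it changes. Named genes are the 15 steepest non-overlapping calls in each direction outside spans under 500 bases, up to 15 genes newly on or shut off by level, list members, the 10 most abundant genes, Rel and Rn45s. The members, lists and settings were chosen with earlier results of these data known. SE are standard errors of the fit.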

Additional observations from a re-analysis of the deposited data

Results flagged for a closer look

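At 4 loci both WT replicates were lower at 1 h than at 0.5 h and both Rel-/- replicates went the other way, and they are named here for that reason, after their values were seen. The step in Rel-/- minus that in WT was 2.25 on the log2 scale for Snora36b, a small nucleolar RNA (-2.01 in WT, 0.24 in Rel-/-), 2.13 for Mir664, which overlaps it within the gene Rab3gap2 and shares its reads (-1.93 and 0.20), 2.62 for Scarna17, a Cajal body RNA (-2.03 and 0.59), and 1.83 for Alkbh5, an RNA demethylase gene (-1.71 and 0.12). The WT values of the small RNA loci rest on few reads. Snora36b had 12 and 14 reads at 0.5 h and 2 and 4 at 1 h. Mir664 had 10 and 14 and then 2 and 4, and Scarna17 had 18 and 13 and then 3 and 4. Alkbh5 had 1031 and 2985 reads and then 635 and 343. None of the 4 differences passed limma's test over the 1970 genes (Benjamini-Hochberg adjusted p = 1 for Snora36b and Alkbh5 and 0.862 for Mir664 and Scarna17).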

How the results depend on the processing

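Against 126 rising and 139 falling genes, the limma fit called 476 and 573 with no filter on low values (over all 24888 genes), 410 and 349 with a mean over 1 RPKM, and 0 and 0 with only the 10 WT or only the 4 compared libraries, where 170 and 210 or 82 and 125 had an unadjusted p under 0.05. With the replicate block, which follows the pairing by time course, it called 303 and 314; in the 10 WT libraries alone the block, a setting added after seeing the data, gave 103 and 117. Leaving out a replicate gave 22 to 153 rising and 35 to 134 falling genes, fewest without replicate 2. Both pseudocounts, the filter at any WT time, both rescalings, quantile normalization and the fit without a trend stayed within 1.5 times of both counts. The difference between genotypes had 0 calls, or 2 without the filter. The 12 genes newly on became 2 with the limit in each library and 17 to 33 without a replicate; the 37 shut off became 6, 23 after quantile normalization and 43 to 57. Causes were not tested.

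Of 98 tested genes that the text names, 69 passed; none of these changed sign in 15 settings, 27 passed without replicate 2 and 51 without replicate 1 (15 in neither: Clec4d, Ier2, Klf6, Mbnl1, Nfkbiz, Plau, Psmb10, Psme1, Stim2, Tapbp, Tfec, Trem2, Snora36b, Mir147 and Mir1948). Of the 98, those that did not pass and changed sign were Actb (-0.24 to 0.50), Ifnb1 (-1.06 to 2.62) and Rel (-0.15 to 0.45) without a replicate, and Mir6236 (0.00) after quantile normalization. Depth limits the newly on miRNA loci, at 1 to 13 reads per WT library from 0 to 1 h.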

Other observations

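Some genes outside the lists, named here after their values were seen, also changed over the step in WT. They came from no fixed list, and no theme was tested. Tapbp, the tapasin that loads MHC class I, was at 3.11 and 11.96 RPKM at 0.5 h and at 19.4 and 37.6 RPKM at 1 h (limma adjusted p = 0.0392). The proteasome activator Psme1 was at 0.843 and 1.74 RPKM and then at 3.87 and 6.55 RPKM (adjusted p = 0.01197), and the immunoproteasome subunit Psmb10 was at 0.863 and 2.16 RPKM and then at 3.74 and 6.90 RPKM (adjusted p = 0.0270). In these 3 genes the 2-h mean was higher again, at 52.4, 12.8 and 15.2 RPKM. Psme1 had 219 and 469 reads at 0 h and 60 and 193 at 0.5 h, and Psmb10 had 187 and 421 and then 54 and 210. Relative to library depth, too, both genes were lower at 0.5 h than at 0 h. Tapbp had 1132 and 4163 reads at 0 h and 716 and 4288 at 0.5 h. Malt1, the paracaspase that signals to NF-κB, was at 8.68 and 10.1 RPKM and then at 28.9 and 25.8 RPKM (limma adjusted p = 0.00356). Tnfrsf11a, the RANK receptor, was at 0.844 and 0.552 RPKM and then at 1.52 and 6.38 RPKM (adjusted p = 0.0212), against 3.36 and 2.96 RPKM at 0 h.

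Of the genes that fell, also named after their values were seen, Nlrp3, the inflammasome sensor, was at 3.67 and 5.03 RPKM at 0 h, 79.3 and 111 RPKM at 0.5 h and 42.3 and 26.6 RPKM at 1 h (limma adjusted p = 0.0456). C5ar1, the complement C5a receptor, was at 25.4 and 46.3 RPKM at 0.5 h and at 11.9 and 9.17 RPKM at 1 h (adjusted p = 0.0159). Ifngr1, a chain of the interferon-γ receptor, fell from 10.4 and 14.7 RPKM to 3.51 and 1.98 RPKM (limma adjusted p = 0.00353). Igf1, insulin-like growth factor 1, fell from 14.6 and 17.6 RPKM to 2.72 and 3.81 RPKM (adjusted p = 0.00342). Each of the 4 genes had its highest WT mean at 0.5 h. Fli1, an ETS-family factor, was at 5.46 and 8.84 RPKM at 0 h, 4.07 and 6.13 RPKM at 0.5 h and 0.665 and 1.41 RPKM at 1 h (adjusted p = 0.00166) and remained low, with means of 0.759 and 1.36 RPKM at 2 and 6 h.

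By gene span, 4.13% of the tested genes of 500 to 10000 bases rose and 7.39% fell, 7.26% and 7.44% of those of 10000 to 30000 bases, 9.64% and 7.50% of those of 30000 to 100000 bases, and 6.59% and 6.59% of the longer ones. Spans under 500 bases made up 325 of the tested loci and 29 of the calls, of which 25 lay inside another listed gene and 12 inside a tested one, with the same sign in all 12.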
